A study of Mus musculus with 4 samples.

Results

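ARID1A peaks on mouse chromosomes 8, 12, 13 and 18 were taken from 4 peak lists of 266-6 cells, an established line of mouse pancreatic acinar cells. Every row of a list that lay on one of these chromosomes was a member, 1059 of 11220 peaks in all. Control replicate 1 held 375 of them, control replicate 2 held 682, EGF replicate 1 held 2 and EGF replicate 2 held 0. The chromosomes had been chosen with the control lists known, because their peaks per Mb are low, so their density is given as a description with no test. ARID1A had been recovered by chromatin immunoprecipitation and sequenced (ChIP-seq), with 2 libraries per group. Per the labels, all cells were first held about 14 h without serum. The EGF group then received 40 ng/ml epidermal growth factor for 8 h, and the control group 0.1% bovine serum albumin. The line is a single one, whether the replicate libraries stem from separate cultures is not labelled, and a p-value across the groups reflects only how far these libraries spread, possibly for technical reasons. The lists hold no expression values, so the acinar identity of the cells was not checked here. Positions are in the build mm9 and counted from 1. No gene was assigned and no sequence is shown, because a genome of that build was not used here.

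ARID1A is a DNA-binding subunit of the canonical BAF form of the SWI/SNF complexes, which use ATP to slide or evict nucleosomes. It is known for its place at enhancers and for its frequent loss in tumours, those of the pancreas among them. EGF binds the receptor tyrosine kinase EGFR and activates the RAS and ERK kinases, a pathway that drives acinar cells toward a duct-like state. In ChIP-seq, a peak is a stretch where the reads of the precipitated DNA exceed those of input DNA, which was sequenced without precipitation.

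Depth bears on every count that follows. Per 200 bp of genome, ChIP depth as recovered from the lists lay between 1.06 and 1.23 reads in all 4 libraries. Input depth was 0.771 reads per 200 bp for the control lists but 0.506 for EGF replicate 1, and this value was also used for EGF replicate 2, whose list does not give its own. The smallest −log10 p of a called peak was 7.07 in EGF replicate 1 and 8.00 in EGF replicate 2, against 4.43 and 4.25 in control cells. The smallest −log10 q was 2.07 in EGF replicate 1 and 2.47 in EGF replicate 2, against 1.31 and 1.38 in control replicates 1 and 2. These are observed minima, and the cut-off used for calling is not given in the labels. No batch is labelled. Input depth and these minima follow the groups, and their part in a difference between groups cannot be told apart from that of the treatment. Control replicate 2 held the longer list with a slightly lower ChIP depth.

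In control cells, the 4 chromosomes carried between 0.781 and 1.71 ARID1A peaks per Mb. The density is the number of peaks divided by the position of the last control peak on the chromosome. Chromosome 8 had 108 and 225 peaks in control replicates 1 and 2, or 0.823 and 1.71 per Mb. On chromosome 12 the lists held 105 and 170 peaks, or 0.879 and 1.42 per Mb. Chromosome 13 had 94 and 172 peaks, or 0.781 and 1.43 per Mb, and chromosome 18 had 68 and 115, or 0.807 and 1.36 per Mb. The nearest chromosome above them was chromosome 2, with 1.13 and 2.05 per Mb. The X chromosome, sparser than all 4 with 0.150 and 0.270 per Mb, was not among them. The median of the 16 other chromosomes was 1.84 and 3.08 per Mb.

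Along the chromosomes the peaks were uneven, and the densest stretch lay near the end of chromosome 8. Peaks were counted by summit in bins of 10 Mb, of which 44 were filled to their end. A full bin held a median of 7.0 peaks in control replicate 1, from 0 to 35, and of 12 in control replicate 2, from 1 to 67. The 208 full bins elsewhere had medians of 14 and 25.5 and reached 65 and 111 peaks, so the densest bin here was not the densest of the genome. At most 5 peaks were found in 17 of the 44 bins (38.6%) in control replicate 1 and in 7 (15.9%) in control replicate 2, against 20.2% and 12.5% of the bins elsewhere. The bins elsewhere include those of the X chromosome, which held only 25 and 45 peaks in all and so raised these shares. Both lists placed their peaks in much the same bins. Over the 44 bins the counts of the lists correlated at Pearson r = 0.932 and Spearman rho = 0.889, a description of bins that share libraries and input.

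**Figure D1:**
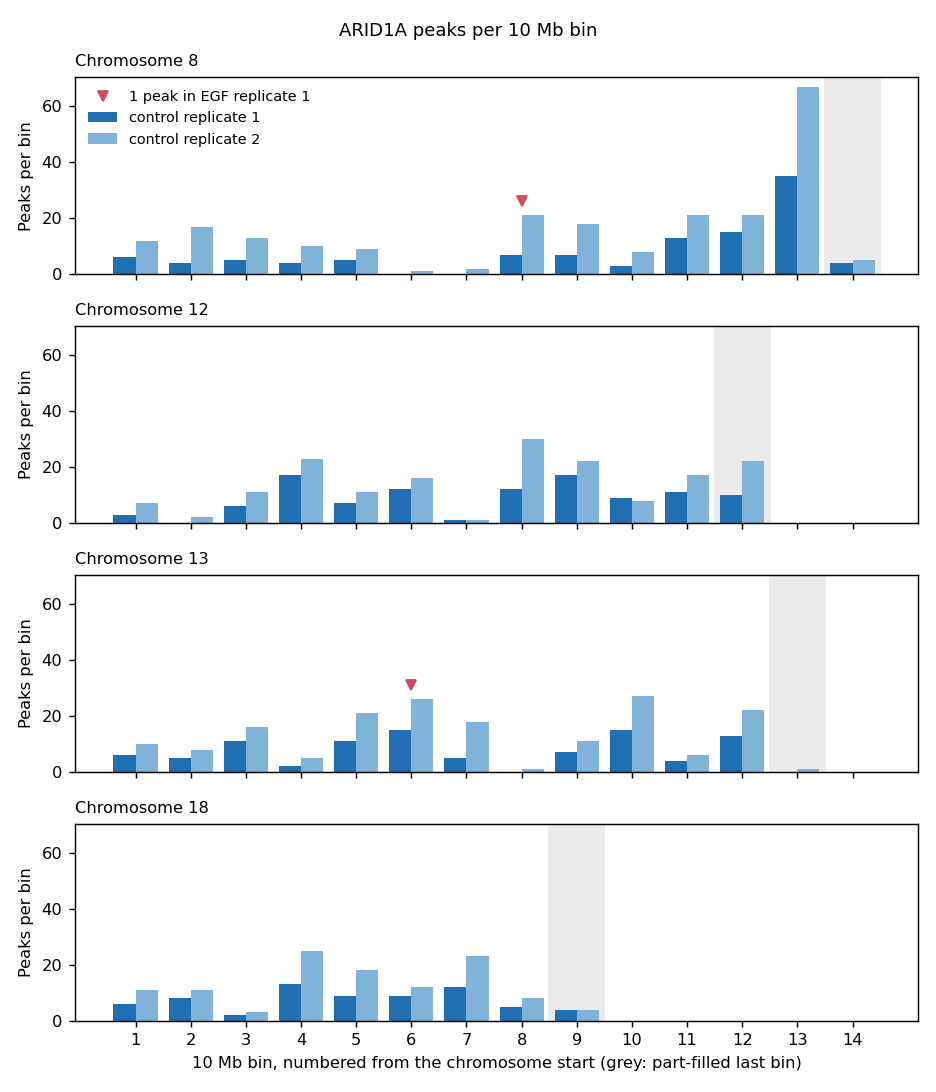
Number of ARID1A peaks (vertical axis) in each 10 Mb bin (horizontal axis) of chromosomes 8, 12, 13 and 18, with dark bars for control replicate 1 and light bars for control replicate 2. Red triangles mark the bins with 1 peak of EGF replicate 1, and bin 13 of chromosome 8 stands out with 35 and 67 peaks.

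The bin from 120 to 130 Mb of chromosome 8 held 35 and 67 peaks in control replicates 1 and 2, 32.4% and 29.8% of the peaks of that chromosome. The median full bin of chromosome 8 held 5.0 and 13. The next densest, from 110 to 120 Mb, held 15 and 21. In the densest bin 19 peaks of each list were shared by both, which is 54.3% of those in the shorter list and 28.4% in the longer one. The local input at its peaks had a median ratio of 1.30 to the genome-wide background in either list, the same as on chromosome 8 as a whole. From 50 to 60 Mb of chromosome 8 there was no peak in control replicate 1 and 1 in control replicate 2. In control replicate 1 this belonged to a stretch of 23.7 Mb with no peak, from 49329622 to 73028176.

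No single bin stood out in this way on the other 3 chromosomes. On chromosome 12, 70 to 80 Mb held 12 and 30 peaks, 30 to 40 Mb held 17 and 23, and 80 to 90 Mb held 17 and 22. The first was densest by the summed count but not in control replicate 1. Of the peaks from 30 to 40 Mb, 15 of 17 (88.2%) in control replicate 1 and 14 of 23 (60.9%) in control replicate 2 were shared. Over all chromosomes the shares were 71.3% and 40.4%. The emptiest bin of chromosome 12, from 10 to 20 Mb, held 0 and 2. On chromosome 13 the bins from 90 to 100 Mb, with 15 and 27 peaks, and from 50 to 60 Mb, with 15 and 26, were alike, and the bin from 70 to 80 Mb was the emptiest with 0 and 1. On chromosome 18 the bin from 30 to 40 Mb held 13 and 25 peaks and that from 60 to 70 Mb held 12 and 23. Of the latter, 11 of 12 peaks in control replicate 1 (91.7%) and 11 of 23 in control replicate 2 (47.8%) were shared. Next to the densest bin of chromosome 18 lay its emptiest, from 20 to 30 Mb, with 2 and 3 peaks.

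The longest stretch with no peak in either control list was 11.5 Mb on chromosome 18, from 20800408 to 32307192. It was 9.40 Mb on chromosome 8, from 97400535 to 106797223, and 9.06 Mb on chromosome 12, from 8518314 to 17582966. On chromosome 13 it was 8.86 Mb, from 67209922 to 76068471. Gaps of this length were not confined to these chromosomes, as chromosomes 7 and 14 had 11.9 and 10.2 Mb and the X chromosome 31.5 Mb.

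The input DNA at these peaks was low, least so on chromosome 8. Local input was expressed relative to the genome-wide input background of the library, which is the lowest value the calling allows. It equalled that background at 133 of 375 peaks (35.5%) in control replicate 1 and at 263 of 682 (38.6%) in control replicate 2. Over all chromosomes this was so for 12.2% and 13.1% of the peaks. At least 2 times the background was reached by 13.1% and 10.9% of the peaks here, against 27.9% and 31.6% elsewhere. Within the set, chromosome 8 stood apart from the other 3. On chromosome 8, 20.4% and 25.3% of the peaks lay at the background, on chromosome 12 43.8% and 43.5%, on chromosome 13 38.3% and 43.6%, and on chromosome 18 42.6% and 49.6%. The median local input was 1.30 times the background on chromosome 8 in both lists, and between 1.01 and 1.06 times on chromosomes 12, 13 and 18. The value of chromosome 8 was also the median of the 16 other chromosomes, and chromosome 3 had 22.0% and 20.5% of its peaks at the background. Low input at called peaks thus went with low density on chromosomes 12, 13 and 18 but less so on chromosome 8. The part of input in the density was not tested. Across the 37 bins here with at least 3 peaks in each list, the median input and the number of peaks correlated at rho = 0.214 and 0.242, among points that share 1 input. Over 183 such bins elsewhere rho was 0.461 and 0.518, with median input up to 3.63 and 3.85 times the background, against at most 1.30 times here.

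**Figure D2:**
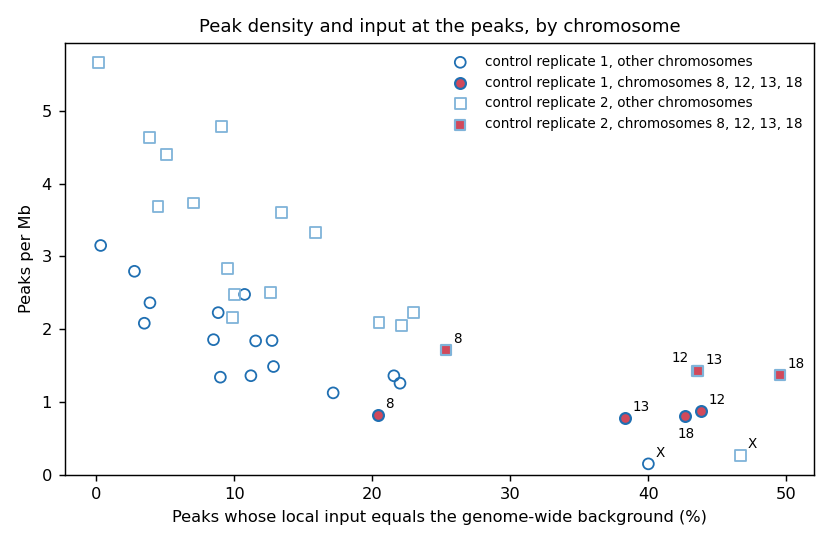
Peaks per Mb (vertical axis) against the percentage of peaks whose local input equals the genome-wide background (horizontal axis), for 20 chromosomes in control replicate 1 (circles) and control replicate 2 (squares). Filled red symbols are chromosomes 8, 12, 13 and 18, and chromosomes 12, 13 and 18 lie near the X chromosome on the right, between 38.3% and 49.6%.

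Single peaks on these chromosomes were about as enriched as elsewhere, but fewer were very strong. The deposited fold compares ChIP with input at the summit after ChIP is scaled to the input depth and 1 is added to each, so it lies below the plain ratio of reads to input. It had a median of 6.04 here and 5.80 elsewhere in control replicate 1, and of 5.94 and 5.80 in control replicate 2. The fold ran from 3.59 to 13.5 in control replicate 1, from 3.31 to 13.4 in control replicate 2, while the highest folds elsewhere were 25.9 and 23.0. By chromosome the highest fold was 10.5 to 13.5 and 11.8 to 13.4 here, and its median over the 16 others was 12.7 and 14.9. Of those 16, 10 in control replicate 1 and 5 in control replicate 2 had a highest fold below the highest here. A fold of at least 10 was reached by 6 peaks (1.60%) and 17 peaks (2.49%), against 3.15% and 3.42% over all chromosomes. The summits held a median of 17 and 16 reads here, at most 40 and 38, and 19 and 18 elsewhere, at most 131 and 138. The plain ratio, reads over local input with both relative to their genome-wide level, had medians of 11.7 and 11.5 here and 10.4 and 10.2 elsewhere. The deposited score, which grows as the q-value falls, reached 80 in 7.73% and 14.4% of the peaks here and in 16.4% and 18.2% elsewhere. Of the 100 highest scores of each control list, 2 lay on these chromosomes, which held 9.30% and 9.59% of the peaks of the lists.

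The peaks were also narrower than elsewhere at the median. Their median width was 264 bp in control replicate 1, with quartiles of 217 and 330 bp, and 273 bp in control replicate 2, with quartiles of 225 and 371 bp. Elsewhere the medians were 292 and 289 bp. A width of at least 500 bp was reached by 22 peaks (5.87%) and 58 peaks (8.50%), against 11.0% and 12.9% over all chromosomes. The difference from the rest was smaller among peaks whose local input lay at the background. There the medians were 259 bp here and 272 bp elsewhere in control replicate 1, and 270 and 271 bp in control replicate 2. Between the background and 2 times that value, the 193 peaks of control replicate 1 had a median of 262 bp, against 288.5 bp elsewhere. The 345 such peaks of control replicate 2 had a median of 270 bp, against 285 bp elsewhere. At 2 times the background or more, the 49 peaks of control replicate 1 were narrower than those elsewhere, with medians of 284 and 311 bp, but the 74 of control replicate 2 were wider, with 336 and 306 bp. By chromosome the medians spanned 257 to 272 bp in the first control list and 267 to 279 bp in the second. Of the 16 other chromosomes, 2 had a median below the highest of these 4 in control replicate 1, and 2 in control replicate 2.

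**Figure D3:**
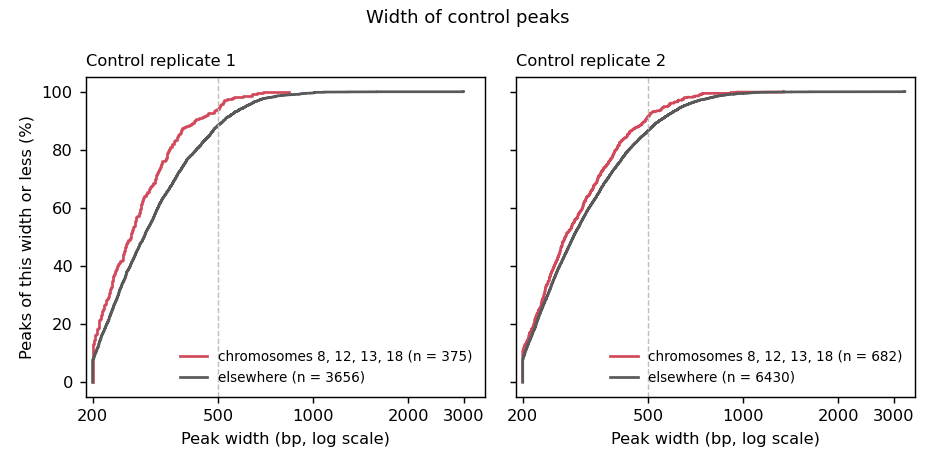
Percentage of control peaks (vertical axis) up to a given width in bp (horizontal axis, log scale), for chromosomes 8, 12, 13 and 18 in red and all others in grey. The red line lies to the left in both control lists, with medians of 264 against 292 bp in control replicate 1 and 273 against 289 bp in control replicate 2, and the dashed line marks 500 bp.

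All 22 wide peaks of control replicate 1 were found in control replicate 2, against 437 of 445 over all chromosomes. In turn, 40 of the 58 wide peaks of control replicate 2 were found in control replicate 1, against 734 of 916 over all chromosomes. By width in control replicate 2, the widest shared site lay on chromosome 12, at chr12:93092222-93093567 with 1346 bp and 554 bp in control replicate 1, its summits 4 bp apart. By the same list, the widest on chromosome 18 was chr18:66446207-66447156 with 950 bp, against 494 bp in control replicate 1. On chromosome 13 it was chr13:60108554-60109466 with 913 bp, against 275 bp. The widest of chromosome 8 was chr8:73046917-73047659 with 743 bp, against 563 bp. The choice by control replicate 2 favours sites that are wide there. In control replicate 1 the widest peaks were of 691 bp on chromosome 8, 598 bp on chromosome 12, 664 bp on chromosome 13 and 840 bp on chromosome 18. Of the 240 shared pairs, 158 (65.8%) were wider in control replicate 2, against 64.5% elsewhere.

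Peaks had fewer close neighbours than elsewhere. Another peak of the same list lay within 10 kb of 65 of 375 peaks (17.3%) in control replicate 1 and of 187 of 682 (27.4%) in control replicate 2. Over all chromosomes the shares were 24.0% and 34.6%. No neighbour within 1 Mb was found for 8.53% and 4.25% of the peaks, against 3.56% and 1.45% elsewhere. Spacing follows density, so these values are no separate evidence. Groups of at least 3 peaks with gaps of up to 50 kb numbered 14 in control replicate 1, with 48 of 375 peaks (12.8%). In control replicate 2, the longer list, they numbered 55, with 199 of 682 peaks (29.2%). Groups on other chromosomes are not reported here, so these shares have no reference. Of the groups here, 5 and 24 lay on chromosome 8. The largest of control replicate 2 were chr8:114215030-114270066 and chr8:125160845-125290624, with 7 peaks each. The latter overlapped a group of 5 peaks of control replicate 1 at chr8:125189519-125289342, of which 1 peak was shared. By contrast, all 4 peaks of a group at chr12:31776115-31870857 in control replicate 1 were found in control replicate 2. The group of control replicate 2 there held 5 peaks, of which 3 were shared.

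Fewer peaks were found in both control lists here than elsewhere. An overlap of at least 1 bp counted as sharing. In control replicate 1, 240 of 375 peaks (64.0%, 95% exact Clopper-Pearson interval 58.9% to 68.9%) had a partner in control replicate 2, against 71.3% over all chromosomes and 72.0% elsewhere. In control replicate 2, 238 of 682 (34.9%, interval 31.3% to 38.6%) had one in control replicate 1, against 40.4% over all chromosomes and 40.9% elsewhere. Intervals and limits cover counting error only. Peaks of 1 library are not replicates, and the difference from the rest was not tested.

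The shortfall was clearest on chromosome 8. There 59.3% of the control replicate 1 peaks (interval 49.4% to 68.6%) and 28.4% of those of control replicate 2 (interval 22.6% to 34.8%) were shared, the lowest of the 20 chromosomes in each list. Chromosome 13 had 62.8% and 33.7%, chromosome 12 had 65.7% and 40.0%, and chromosome 18 had 70.6% and 41.7%. The medians of the 16 chromosomes outside the set were 70.5% and 40.5%, so chromosome 18 was not below them. Without chromosome 8 the shares of chromosomes 12, 13 and 18 together were 65.9% and 38.1%. Outside its dense bin, 61.6% and 28.5% of the peaks of chromosome 8 were shared, close to its values with that bin.

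**Figure D4:**
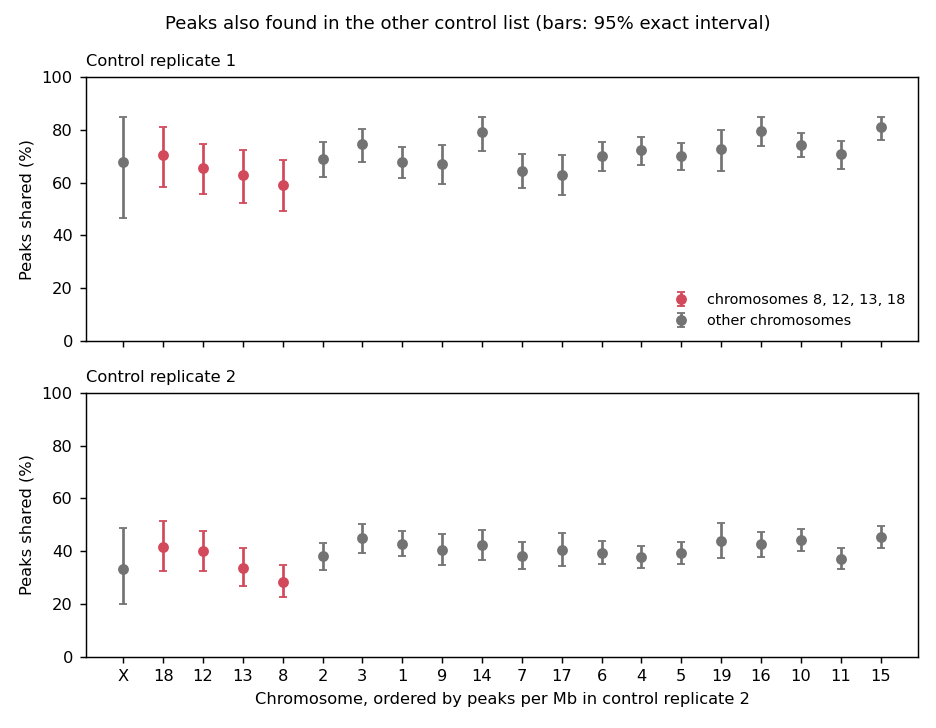
Percentage of the peaks of one control list that overlap a peak of the other (vertical axis), by chromosome in order of density (horizontal axis), with 95% exact intervals. Chromosomes 8, 12, 13 and 18, in red, run from 59.3% to 70.6% in control replicate 1 and from 28.4% to 41.7% in control replicate 2, within the span of the others except for chromosomes 8 and 13 in control replicate 1 and chromosome 8 in control replicate 2.

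Sharing rose with the score in both lists. In control replicate 1 it was 51.2% for scores under 40, 66.5% for scores from 40 to 79 and 100% for the 29 peaks at 80 or more. In control replicate 2 it was 19.4%, 34.7% and 72.4%. Elsewhere the shares were 56.2%, 74.6% and 96.5% in control replicate 1 and 19.8%, 40.9% and 81.2% in control replicate 2. Where the local input equalled the background, sharing in control replicate 1 was 69.9% here and 70.6% elsewhere, and in control replicate 2 34.6% and 37.5%. Where it was at least 2 times the background, sharing was 55.1% of 49 peaks here and 80.2% elsewhere in control replicate 1, but 41.9% of 74 peaks and 40.7% in control replicate 2. Between these bounds, sharing in control replicate 1 was 62.2% of 193 peaks here and 68.6% elsewhere. In control replicate 2 it was 33.6% of 345 peaks here and 41.7% elsewhere. The gap in control replicate 1 was widest at peaks of high input and narrow at the background. That in control replicate 2 was widest between the bounds, where most of its peaks here lay.

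At the shared sites the control lists differed by a like amount here and elsewhere. Over the 240 pairs the summits lay a median of 62.5 bp apart, against 66.0 bp elsewhere, and 99 pairs (41.3%) were within 50 bp. Summit reads over the genome mean of the library differed between the lists with an SD of 0.35 on the log2 scale, against 0.34 elsewhere. The log2 reads of the lists correlated at r = 0.472 over these pairs and at 0.700 over the pairs elsewhere, which span higher levels, up to 111 and 122 times the genome mean against 33.8 and 33.5 here. Sites of 1 library are not independent, and the correlations are descriptions.

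The strongest sites were named by the deposited score in control replicate 2, 3 for each chromosome, and levels are summit reads over the genome mean. On chromosome 8 the highest was chr8:11632466-11632851, at 17.7 in control replicate 1 and 33.5 in control replicate 2. It ranked at place 1 of the 682 peaks of control replicate 2 and at place 52 of the 375 of control replicate 1, so the lists differed widely at this site. The site chr8:73046917-73047659 was at 27.0 and 28.2, nearly alike in the lists, with folds of 12 and 12.5. The site chr8:124630143-124630646, in the dense bin, was at 14.4 and 24.7.

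On chromosome 12 the highest was chr12:106062571-106063219, at 17.7 and 26.4. The site chr12:74509538-74509898 was at 15.2 and 25.5, and chr12:37271958-37272303 at 16 and 23.8. These 3 were all higher in control replicate 2, the list by which they had been picked. The highest of control replicate 1 on this chromosome, chr12:90387588-90387971, was at 24.5 and 23.8, with folds of 11 and 10.7.

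On chromosome 13 the site chr13:29918416-29918832 was at 16 and 29.1 in control replicates 1 and 2. The site chr13:60108554-60109466 was at 21.1 and 26.4, and its summits lay 212 bp apart. The third, chr13:54526688-54527123, was at 33.8 and 28.2, with folds of 13.5 and 11.4. In control replicate 1 it had the highest score on the 4 chromosomes and the place 11 in the whole list.

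On chromosome 18 the site chr18:64890924-64891428 was at 16 and 26.4. The sites chr18:48624716-48625115 and chr18:11167504-11167767 were at 19.4 and 23.8 and at 15.2 and 21.1. The highest of control replicate 1, chr18:19802673-19803122, was at 22.8 and 16.7. All 4 sites of chromosome 18 named here stayed below 27.0 in each list, the lower level of the chromosome 8 site at chr8:73046917-73047659.

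**Figure D5:**
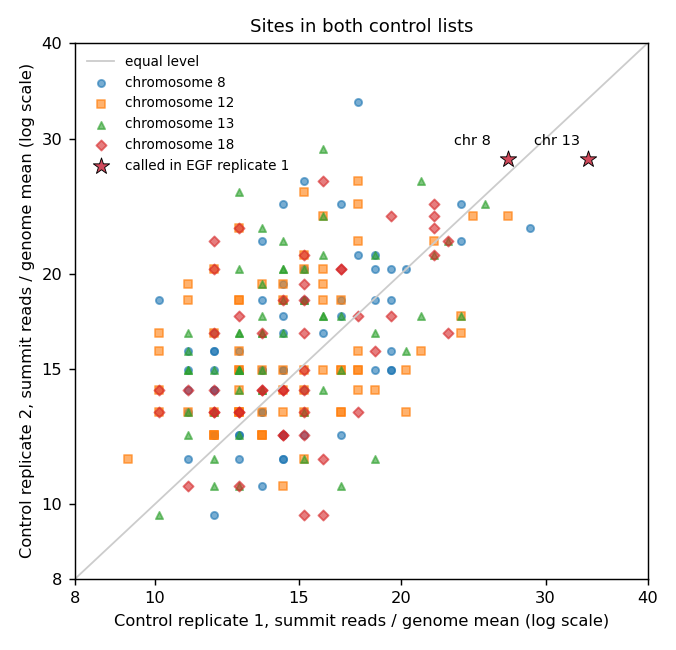
Summit reads over the genome mean in control replicate 1 (horizontal axis, log scale) and control replicate 2 (vertical axis, log scale) for the 240 pairs of shared peaks, by chromosome. Stars mark the sites called in EGF replicate 1, at 27.0 and 28.2 on chromosome 8 and at 33.8 and 28.2 on chromosome 13, and these have the highest means of all pairs.

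Some strong peaks were found in 1 control list alone, and the highest on each chromosome lay in control replicate 2. They were chr8:49289327-49289673 with a fold of 10.0 and 28 summit reads, chr12:39124248-39124621 with 9.39 and 23, chr13:110929459-110929863 with 8.74 and 24, and chr18:84252786-84253194 with 8.62 and 21. The last lay at the far end of the called part of chromosome 18. Of the 98 peaks of control replicate 2 with a score of at least 80, 71 had a partner in control replicate 1.

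With EGF, 2 of these ARID1A sites were called in replicate 1 and 0 in replicate 2. The mean over the libraries of a group went from 528.5 ± 217 to 1.0 ± 1.41 peaks (SD, n = 2 each), 528.5-fold lower. Over all chromosomes the control lists held 4031 and 7112 peaks and the EGF lists 57 and 20, and the mean was 145-fold lower. Peaks covered 109 kb in control replicate 1, 216 kb in control replicate 2, 0.475 kb in EGF replicate 1 and 0 kb in EGF replicate 2, and the mean length was 684-fold lower with EGF. The groups did not overlap. An exact two-sided permutation test gave p = 0.333 for number as for length, which is its lowest possible value with 2 libraries a group, and 0.05 is out of its reach. The number was 264-fold lower without EGF replicate 2, and without EGF replicate 1 no ratio could be given, since no EGF peak was left. Holding all lists to the smallest −log10 p of EGF replicate 2 gave 298.5-fold fewer.

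The share of a list that lay on these chromosomes was lower in both EGF lists. The 4 chromosomes held 9.30% and 9.59% of the control lists, 3.51% of EGF replicate 1 (2 of 57 peaks, exact interval 0.428% to 12.1%) and 0% of EGF replicate 2 (0 of 20 peaks, which allows a share of up to 15% by a limit of 3 counts, and up to 16.8% by the exact interval). The mean share was 9.45 ± 0.203% with albumin and 1.75 ± 2.48% with EGF (SD, n = 2 each), a difference of −7.69 percentage points (exact two-sided permutation p = 0.333). The interval of each EGF list includes the control values, so a lower share was not detectable from either list alone.

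Both sites called with EGF were among the strongest of the control lists. The peak at chr13:54526706-54526958 ranked at place 2 of the 57 peaks of EGF replicate 1, with a fold of 12.4, 253 bp and 37 summit reads. Its level was 33.8 in control replicate 1, 28.2 in control replicate 2 and 34.8 in EGF replicate 1. The peak at chr8:73047136-73047357 ranked at place 13, with a fold of 8.76, 222 bp and 31 reads. Its level was 27.0 in control replicate 1, 28.2 in control replicate 2 and 29.2 in EGF replicate 1. By this scaling EGF replicate 1 was above both control lists at each site, at 1.12 and 1.06 times the control mean.

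Divided by local input instead, the sites went in opposite directions. The chromosome 13 site was at 26.1 and 21.7 in the control lists and 34.8 in EGF replicate 1, 1.46 times the control mean. The chromosome 8 site was at 25.4 and 26.5 in the control lists and 18.5 in EGF replicate 1, 0.711 times. Local input relative to the background was 1.06 in each control list and 1.58 in EGF replicate 1 on chromosome 8, while on chromosome 13 it was 1.30 in each control list and at the background in EGF replicate 1. Both sites were picked by being called with EGF in 1 library, and neither was tested. The EGF peaks were narrower, at 253 bp against 466 and 436 bp on chromosome 13 and at 222 bp against 563 and 743 bp on chromosome 8. Their summits lay 74 and 17 bp from the control summits on chromosome 13 and 10 and 34 bp away on chromosome 8.

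By score, these sites were at places 1 and 2 of the 375 peaks of control replicate 1 and at places 7 and 3 of the 682 of control replicate 2, chromosome 13 named before chromosome 8. They also had the highest mean level of all 240 shared pairs, at 31.0 ± 3.95 and 27.6 ± 0.830 times the genome mean (SD, n = 2). The pair next below them, chr8:87254678-87255088, was at 28.7 and 22.9 in the control lists and was not called with EGF. Its local input was 2.59 times the background in both lists. The site chr12:81716822-81717144, at 27.0 and 23.8, was not called with EGF either. These 2 sites were chosen after their values were seen.

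Of the 240 control sites in both lists, 2 (0.833%, interval 0.101% to 2.98%) were called with EGF, against 2.05% over all chromosomes. It was 1 of 64 on chromosome 8 and 1 of 59 on chromosome 13. Chromosome 12 had 0 of 69, which allows a share of up to 4.35% by the limit of 3 counts and 5.21% by the exact interval, and chromosome 18 had 0 of 48, which allows up to 6.25% and 7.40%. Without EGF replicate 1 the share was 0%. The interval includes the value over all chromosomes, so a lower share than in the whole genome was not detectable. Merged over the 4 lists, the peaks made 815 regions, of which 135 were in control replicate 1 alone, 444 in control replicate 2 alone, 234 in both control lists alone and 2 in both control lists and EGF replicate 1. No region was found with EGF only.

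Most control peaks did not pass when held to the depth and p of the EGF lists. For this count the reads and the local input of each control peak were scaled to the input depth of the EGF lists. The p was held to the smallest −log10 p called there. That bound is the p of the weakest of the 57 or 20 peaks called with EGF. It is itself an outcome of the EGF calling and not a known cut-off, so in part it builds in that control peaks fail. With the depth and p of EGF replicate 1, 100 of 375 peaks (26.7%) of control replicate 1 and 219 of 682 (32.1%) of control replicate 2 passed, against 33.0% and 34.0% over all chromosomes. With those of EGF replicate 2, 53 (14.1%) and 128 (18.8%) passed, against 20.6% and 21.5%. In both control lists at once, 54 of the 240 shared pairs (22.5%) passed with the depth and p of EGF replicate 1, against 31.5% over all chromosomes. Of the 54, 2 (3.70%) were called in it, against 5.19% called with EGF over all chromosomes. None of the 19 such pairs of chromosome 12 or the 11 of chromosome 18 was called, nor were 807 of the 852 such pairs elsewhere. With the depth and p of EGF replicate 2, 24 of the 240 pairs (10.0%) passed, against 19.6% over all chromosomes, and 2 of the 24 (8.33%) were called with EGF, both in EGF replicate 1, against 7.83%. On the 4 chromosomes, 159.5-fold more control peaks passed in this way than were found with EGF, and 90.5-fold more with the depth and p of EGF replicate 2. This scaling assumes that the local input keeps its ratio to the background, which did not hold at either site called with EGF.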

How the data were processed

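Chromatin was precipitated with an ARID1A antibody and sequenced in 2 control and 2 EGF libraries. Per the submitters' processing notes, the build was mm9 and the tools named are MACS2 2.1.1.20160309.0, deepTools 3.0.2, Bowtie2 2.3.4.2 and SAMtools, without options. Each library has its own deposited list with positions, a summit, a score, the fold (ratio of scaled ChIP plus 1 to local input plus 1 at the summit), −log10 p and −log10 q. The deposited score was 10 times −log10 q, rounded down, in 100% of peaks. All are values that the authors' peak calling gave a peak. Ranks were taken within a list, while the smallest p of a list, and reads and input recovered from fold and p, were also set against other lists.

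Read totals are not in the lists. Whole reads and local input at each summit were recovered from fold and −log10 p by the Poisson tail of MACS2, with 1 scaling factor per list and input windows of 1 and 10 kb for reads of 200 bp, which are inferred. Each peak of all 4 lists had 1 solution within 2e-04; the input background of EGF replicate 2 was taken from EGF replicate 1. On peaks simulated under this same model, 100% of reads were recovered in each of the 3 lists simulated. That checks the arithmetic and not the inferred windows and read length. The count of control peaks held to the depth and p of the EGF lists was chosen after the data were seen. Overlap meant at least 1 bp. Groups were compared by exact permutation over 6 assignments. Named peaks were, on each chromosome, the 3 highest by score in control replicate 2 among those in both control lists, the highest of control replicate 1, the highest found in 1 control list, the widest, and every EGF peak; bins and gaps were named by their extremes. The members, rules and tests were chosen with earlier results of these data known. Python 3.11.15, numpy 2.4.6, scipy 1.17.1, pandas 2.3.3 and matplotlib 3.10.9 were used. Genes and sequences were left out, as the reference tables are of another build. Alternatives were a q of 0.005, 1 p-value bound, merging within 500 bp, other overlap rules, shifted bins, ranking by fold, omission of each library or chromosome, and a replicate block.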

Additional observations from a re-analysis of the deposited data

How the results depend on the processing

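Across 14 results, 88 alternative values were computed, of which 77 kept direction or stayed within the interval or the spread between the control lists, 11 moved further and 0 reversed. Only peak number, covered length and the share of a list on these chromosomes could have reversed. Leaving out a control list could not move the median width, the fold or the neighbour share beyond the spread between the lists. The replicate block could not change the difference. The tally is therefore no test of stability. The log2 ratio of peak number was −9.05, ran from −9.41 to −8.05 with a library left out, and was −8.22 with 1 p-value bound, −7.32 and −6.50 with control peaks held to the input depth and smallest −log10 p of EGF replicates 1 and 2, a choice made after the data were seen. No ratio exists without EGF replicate 1. The share of control peaks found in the other control list went from 64.0% to 48.5% in control replicate 1 and from 34.9% to 26.7% in control replicate 2 with an overlap of 50% of each peak, and to 43.5% and 23.9% with summits within 100 bp; the shares elsewhere were then 56.0% and 31.8%, and 47.8% and 27.2%. The share called with EGF ran from 0% to 0.833% with a library left out. Close neighbours were 22.4% of peaks within 10 kb and 45.3% within 50 kb, a wider distance by construction. The densest bin of chromosome 8 held 31.1% of its peaks, and 23.4% (115 to 125 Mb) with bins shifted by 5 Mb. By summed count the densest bin of chromosome 12 was 70 to 80 Mb (14.5%), and 30 to 40 Mb (15.2%) at a q of 0.005. With peaks of both control lists only, the densest bin lay at 30 to 40 Mb on chromosome 12 (21.2%), 40 to 50 Mb on chromosome 13 (17.1%) and 60 to 70 Mb on chromosome 18 (22.9%), and with shifted bins at 55 to 65 Mb on chromosome 13 (14.5%). Ranking by fold kept 13 of the 14 strongest sites named by score.

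A replicate block left the difference in the share of peaks on the 4 chromosomes at −7.69 percentage points (exact permutation p = 0.5, which is as low as 2 pairs allow). Nothing but the number links same-numbered libraries, and since EGF replicate 2 holds no peak here, a block on the log2 ratios and a check of the pairing could not be made. No p under 0.333 can arise without the block, so these tests say nothing about stability. A missing call is no measurement that ARID1A was gone. Input was shallower for EGF replicate 1, and EGF replicate 2 gave no value of its own. The part of input depth in the missing calls cannot be told apart from that of the treatment.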
